A study of Mus musculus with 8 samples.

Results

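Mtss1 and 9 other genes that lie close to Fbxo32 on the same mouse chromosome were followed in hearts with and without Fbxo32, the gene that encodes the muscle ubiquitin ligase MAFbx (atrogin-1). The 10 genes were Zhx2, Derl1, Tbc1d31, Zhx1 and Atad2 on one side of Fbxo32 and Klhl38, Tmem65, Tatdn1, Mtss1 and Washc5 on the other, taken by symbol from a list. All 10 were on the array, with 1 probe each, among 19938 genes tested. The start of each gene lay within 1.2 Mb of the start of Fbxo32 in the RefSeq gene table (assembly GRCm38.p6). The genes were chosen by position with their KO minus WT differences already known, and the list leaves out another 12 measured genes of the same 1.2 Mb. Differences between KO and WT in the 10 genes are therefore given as a description, with no test, and the tests below cover the response to infarction and genes farther away.

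Total RNA from mouse hearts was measured on Affymetrix Mouse Gene ST arrays, 2 in each of 4 groups. The groups were KO MI (MAFbxKO mice 1 day after the left coronary artery was tied off for good, an operation that produces an infarct), WT MI (wild-type mice 1 day after the same ligation), KO sham and WT sham (mice of each genotype after sham surgery). The labels give no strain, sex, age, knockout allele or deleted region, and do not tie the time to the sham hearts. Whether each array stands for its own animal is not stated either, so the p-values rest on a spread that may be technical. The values are log2 expression levels, so a difference of 1 is a doubling.

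The 10 genes share a neighbourhood rather than a pathway. Neighbouring genes can share regulatory DNA, and in a mouse made by gene targeting the DNA around the targeted gene is inherited together with it. Several of the 10 have known roles in heart or muscle cells: Mtss1 encodes a membrane-bending protein that also binds actin, Tmem65 a protein of the inner mitochondrial membrane that has also been placed at the intercalated disc, and Klhl38 a kelch protein expressed mainly in striated muscle. The others act in endosomal sorting (Washc5), at centriolar satellites (Tbc1d31), on chromatin (Atad2), as a TatD-type deoxyribonuclease (Tatdn1), as transcriptional repressors (Zhx1 and Zhx2) and in the export of misfolded proteins from the endoplasmic reticulum (Derl1).

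Array medians over all 35556 probes lay between 5.004 and 5.253. On the second principal component, which held 8.56% of the variance across genes, KO sham replicate 1 lay far from KO sham replicate 2, and WT MI replicate 2 far from WT MI replicate 1. The summed level of 10 cardiomyocyte markers, such as Myh6 and Tnnt2, was 16.51 to 16.53 in KO MI, 16.41 to 16.45 in WT MI, 16.59 to 16.67 in KO sham and 16.66 to 16.70 in WT sham, on the log2 scale.

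Fbxo32, the targeted gene, read 5.14 and 5.46 in KO MI arrays, against 8.35 and 8.21 in WT MI arrays. It read 4.68 and 5.17 in KO sham arrays, against 8.76 and 8.79 in WT sham arrays. The KO arrays were low in both conditions and far from the WT arrays, in keeping with the genotype labels. Where the probe lies relative to the deleted region is not given.

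**Figure D1:**
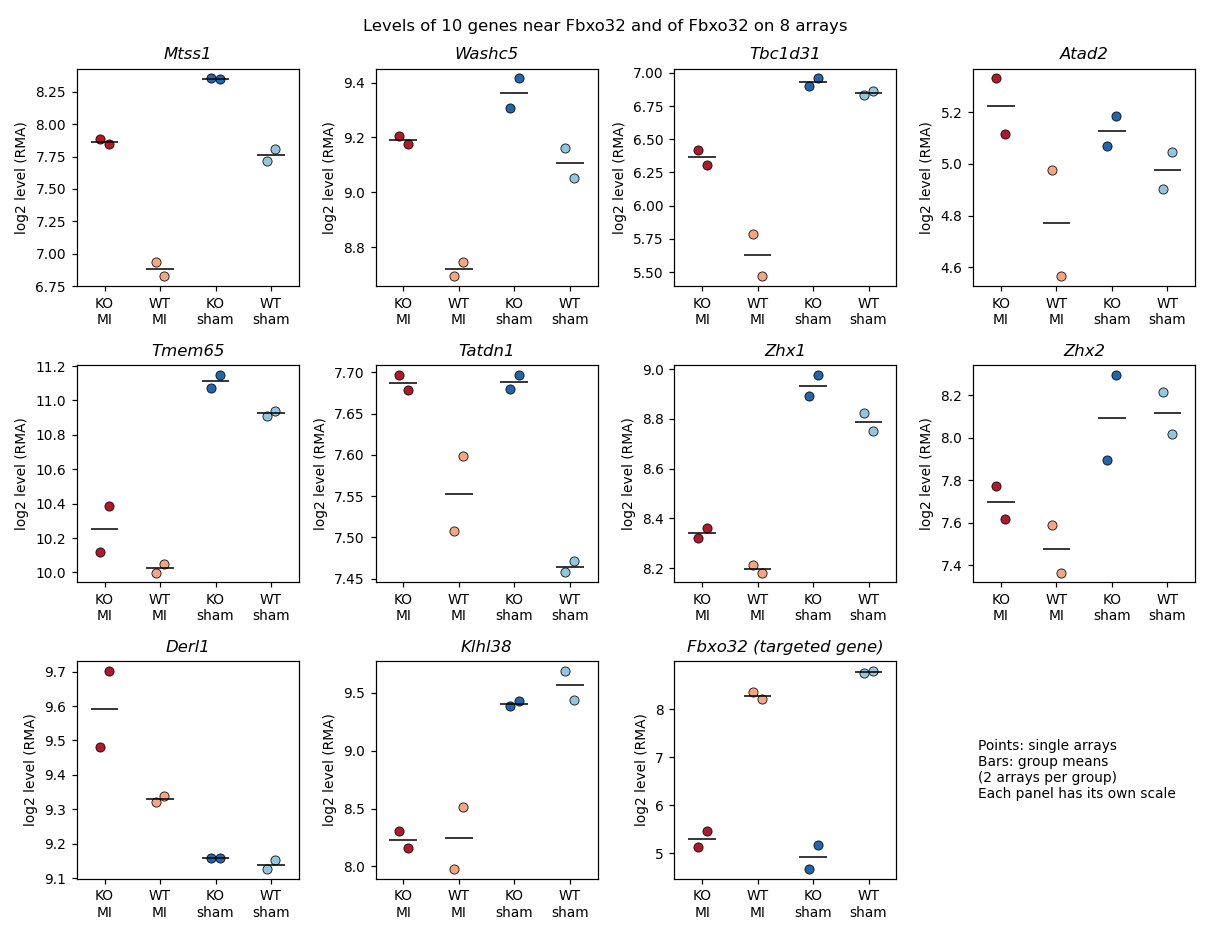
Log2 level of each of the 10 genes and of Fbxo32 (vertical axes, each panel on its own scale) on the 8 arrays, with KO MI, WT MI, KO sham and WT sham from left to right. Points are single arrays and bars are the means of 2 arrays. Mtss1 lies higher in KO than in WT in both conditions, while Klhl38 does not.

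Mtss1, an I-BAR protein of a class that pushes the plasma membrane outward, had the largest difference between genotypes among the 10 genes in both conditions. It read 7.89 and 7.84 in KO MI arrays, against 6.94 and 6.83 in WT MI arrays. In sham hearts it read 8.35 and 8.35 in KO arrays, against 7.71 and 7.81 in WT arrays. The arrays of the genotypes did not overlap in either condition. KO hearts after infarction still read above WT hearts after sham surgery, by a narrow gap between the nearest arrays (7.84 and 7.81). The KO mean was 7.87 ± 0.03 after MI, against 6.88 ± 0.08 in WT (SD, n = 2 each), a log2 difference of 0.98 or 1.98-fold. After sham surgery it was 8.35 ± 0.0013 in KO, against 7.76 ± 0.07 in WT (SD, n = 2 each), a log2 difference of 0.59 or 1.51-fold. Ranked from the highest over all 19938 genes, the KO minus WT difference of Mtss1 stood at place 24 after MI and 87 after sham surgery. The 4 groups ran from KO sham through KO MI and WT sham to WT MI, and no neighbours in that order overlapped.

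Summed cell type markers were compared between genotypes too, where a lack of overlap between 2 and 2 arrays is common. Among all 19938 genes, the KO arrays lay wholly above the WT arrays for 4831 after MI and 3312 after sham surgery. They lay wholly below for 4025 and 3202. After MI the summed level of 8 neutrophil markers was 12.32 to 12.36 in KO, against 12.81 to 13.27 in WT, and that of 7 fibroblast markers was 12.86 to 12.90 in KO, against 12.58 to 12.65 in WT. After sham surgery the neutrophil markers summed to 7.44 to 7.51 in KO, against 7.34 to 7.61 in WT, so the ranges overlapped, as did those of the fibroblast markers (13.18 to 13.35 in KO, 13.29 to 13.36 in WT). The 7 smooth muscle and pericyte markers summed to 11.67 to 11.81 in KO sham, against 12.19 to 12.52 in WT sham. After MI these smooth muscle ranges overlapped, at 11.36 to 11.43 in KO and 11.40 to 11.97 in WT. Averaged over conditions, 4 of these 7 markers lay lower in KO than in WT and 3 higher, and a sum gives most weight to the brightest. The 8 monocyte and macrophage markers overlapped between genotypes after MI (12.00 to 12.12 in KO, 11.87 to 12.46 in WT) and after sham surgery (10.70 to 10.95 in KO, 10.82 to 10.84 in WT). The cardiomyocyte sums given above lay higher in KO than in WT after MI and overlapped after sham surgery. The 7 endothelial markers overlapped after MI (12.35 to 12.46 in KO, 12.45 to 12.62 in WT) but not after sham surgery (12.68 to 12.70 in KO, 12.72 to 12.73 in WT). None of the listed markers was called for the KO effect averaged over conditions, and their part in the differences of Mtss1 and its neighbours was not tested.

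Washc5, a subunit of the WASH complex, which builds actin on endosomes, followed the same order of groups as Mtss1. It read 9.20 and 9.17 in KO MI arrays, against 8.69 and 8.75 in WT MI arrays. In sham hearts it read 9.31 and 9.42 in KO, against 9.16 and 9.05 in WT. The difference was 0.47 after MI (1.38-fold) and 0.26 after sham surgery (1.19-fold), and in both conditions the 2 KO arrays lay above the 2 WT arrays. Like Mtss1, Washc5 read higher in KO hearts after infarction than in WT hearts after sham surgery. The nearest arrays of those groups were almost level, at 9.17 and 9.16, and this comparison was not tested.

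Tbc1d31, a centriolar satellite protein with a TBC domain, differed between genotypes chiefly in infarcted hearts. It read 6.42 and 6.31 in KO MI arrays, against 5.79 and 5.47 in WT MI arrays, a log2 difference of 0.73 or 1.66-fold. In sham hearts the levels were 6.90 and 6.96 in KO, against 6.83 and 6.86 in WT, a difference of 0.08 (0.05 without KO sham replicate 2). Without WT MI replicate 2 the difference after MI was 0.57. The arrays of the genotypes did not overlap in either condition, but after sham surgery the nearest arrays were almost level.

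Atad2, a bromodomain ATPase that binds acetylated chromatin, read 5.33 and 5.12 in KO MI arrays, against 4.98 and 4.56 in WT MI arrays. After sham surgery it read 5.07 and 5.19 in KO, against 4.90 and 5.05 in WT. The differences of 0.45 and 0.15 left the KO arrays above the WT arrays in both conditions, by a narrow gap in sham hearts. Without WT MI replicate 2 the difference after MI was 0.25. The sham difference was 0.08 without WT sham replicate 1 and 0.10 without KO sham replicate 2. Atad2 is the dimmest of the listed probes in every group, and its detection was not tested.

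Tmem65 read 10.12 and 10.39 in KO MI arrays, against 10 and 10.05 in WT MI arrays. Its sham levels were 11.07 and 11.15 in KO, against 10.91 and 10.94 in WT. The differences of 0.23 and 0.18 were of similar size, and the arrays of the genotypes overlapped in neither condition. Without KO MI replicate 2 the difference after MI was 0.09, and without KO MI replicate 1 it was 0.36.

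Tatdn1 read 7.70 and 7.68 in KO MI arrays, against 7.51 and 7.60 in WT MI arrays. In sham hearts it read 7.68 and 7.70 in KO, against 7.46 and 7.47 in WT. All 4 KO arrays lay between 7.68 and 7.70, above all 4 WT arrays, with differences of 0.13 after MI and 0.22 after sham surgery. The difference after MI was 0.04 with cyclic loess, a scaling that aligns pairs of arrays along the range of levels, and 0.09 without WT MI replicate 1.

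Zhx1, a repressor with zinc fingers and homeodomains, read 8.32 and 8.36 in KO MI arrays, against 8.21 and 8.18 in WT MI arrays. Its levels were 8.89 and 8.98 in KO sham arrays, against 8.82 and 8.75 in WT sham arrays. The difference was 0.14 after MI and 0.15 after sham surgery, and the arrays of the genotypes did not overlap. With cyclic loess the difference after MI was 0.04. Its relative Zhx2 read 7.77 and 7.62 in KO MI arrays, against 7.59 and 7.37 in WT MI arrays. In sham hearts Zhx2 read 7.89 and 8.30 in KO, against 8.22 and 8.02 in WT. The KO arrays of Zhx2 lay above the WT arrays after MI (difference 0.22), while the sham arrays overlapped. The difference after MI was 0.33 without WT MI replicate 1, 0.11 without WT MI replicate 2 and 0.14 without KO MI replicate 1. The sham difference was -0.02, but 0.18 without KO sham replicate 1 and -0.22 without KO sham replicate 2, and 0.08 without WT sham replicate 1 and -0.12 without WT sham replicate 2.

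Derl1, a membrane protein of the channel that pulls misfolded proteins out of the endoplasmic reticulum, read 9.48 and 9.70 in KO MI arrays, against 9.32 and 9.34 in WT MI arrays. In sham hearts both genotypes were nearly level, at 9.16 and 9.16 in KO and 9.13 and 9.15 in WT. The difference was 0.26 after MI and 0.02 after sham surgery, the last between 0.0015 and 0.06 over all settings. With cyclic loess the difference after MI was 0.17. Without KO MI replicate 2 the difference after MI was 0.15.

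Klhl38, the listed gene nearest to Fbxo32 on its far side at 0.139 Mb, was the one gene of the 10 with a KO mean below the WT mean in both conditions. It read 8.30 and 8.16 in KO MI arrays, against 7.98 and 8.52 in WT MI arrays, which overlapped. That difference of -0.02 was -0.29 without WT MI replicate 1, 0.25 without WT MI replicate 2, -0.09 without KO MI replicate 1, 0.06 without KO MI replicate 2 and -0.12 with cyclic loess. In sham hearts it read 9.39 and 9.42 in KO, against 9.69 and 9.44 in WT, so the KO arrays were the lower ones. The sham difference was -0.16, but -0.03 without WT sham replicate 1 and -0.28 without WT sham replicate 2. Klhl38 belongs to the kelch-like proteins, of which many bring substrates to cullin-3 ubiquitin ligases.

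In count, 8 of the 10 genes had both KO arrays above both WT arrays in each condition, where 4.3% of all genes tested did. Taken alone, 9 of the 10 did so after MI, beside 24.2% of all genes, and 8 did so after sham surgery, beside 16.6%. None had both KO arrays below both WT arrays in each condition, where 3.25% of all genes did. These counts describe a list made with the differences known, so nothing is read from them. The median KO minus WT difference over the 10 genes was 0.24 after MI and 0.15 after sham surgery, beside 0.0015 and -0.0039 over all genes. With Mtss1 left out the medians were 0.23 and 0.15. With cyclic loess 5 of the 10 (Mtss1, Washc5, Tbc1d31, Tmem65 and Zhx1) stayed without overlap in both conditions, beside 4.08% of all genes. Without KO sham replicate 1 and WT MI replicate 2 the count was 9 of 10 (10 after MI alone and 9 after sham surgery alone). With so few arrays, 18.8% of all genes then met the rule in both conditions, 41.1% after MI and 38% after sham surgery.

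**Figure D2:**
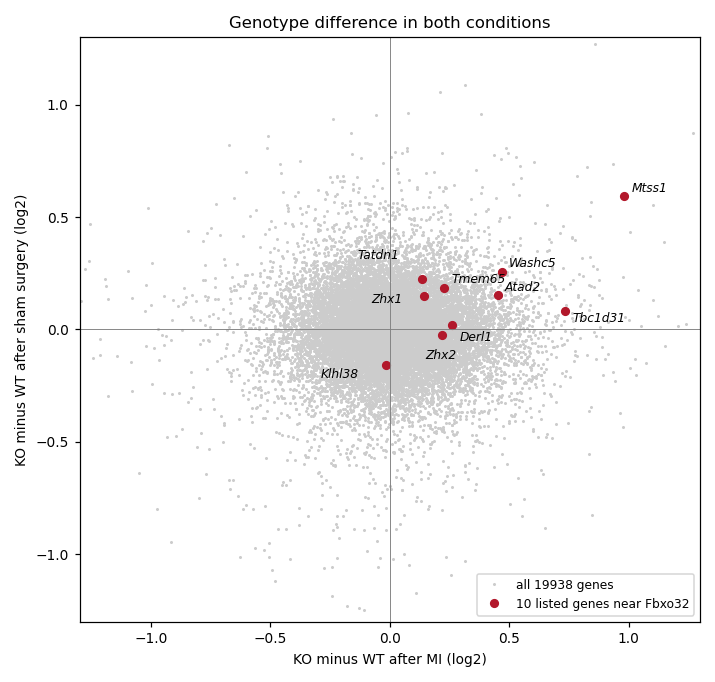
KO minus WT difference after MI (horizontal axis, log2) against the same difference after sham surgery (vertical axis, log2), for 19938 genes in grey and the 10 listed genes in red. The axes leave out 34 genes, and no array is shared between the axes. Mtss1 lies at 0.98 and 0.59, outside the bulk of genes, whereas Zhx2, Derl1 and Klhl38 lie within it.

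The other 12 measured genes of the same 1.2 Mb serve as a comparison, although the choice of the list shaped this remainder too. Their median KO minus WT difference was 0.03 after MI and -0.08 after sham surgery, and 3 of the 12 lay above 0 in both conditions. One of them had KO arrays above WT arrays in both conditions: 9130401M01Rik, singled out after its values were seen. It read 7.56 and 7.38 in KO MI arrays, against 7.20 and 7.28 in WT MI arrays, and 7.48 and 7.40 in KO sham arrays, against 7.19 and 7.24 in WT sham arrays. Another 3 of the 12 were higher in KO after MI and lower in KO after sham surgery without overlap, beside 3.88% of all genes. Without KO sham replicate 1 and WT MI replicate 2 there were 5 of 12, beside 12% of all genes. Wdyhv1, an amidase for N-terminal glutamine and the measured gene closest to Fbxo32 (0.0345 Mb), read 7.09 and 7.26 in KO MI, against 6.81 and 6.90 in WT MI, but 7.54 and 7.57 in KO sham, against 7.72 and 7.65 in WT sham. Rnf139, a ubiquitin ligase of the endoplasmic reticulum, and Nsmce2, a SUMO ligase of DNA repair, were likewise higher in KO after MI (0.26 and 0.24) and lower in KO after sham surgery (-0.16 and -0.25).

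Among the listed genes, the largest differences were not at the shortest distances from Fbxo32. A trend with distance was not tested, and several genes below were named after their values were seen. Averaged over both conditions, the KO minus WT difference was 0.79 for Mtss1 at 0.765 Mb, 0.41 for Tbc1d31 at 0.264 Mb on the other side, and 0.36 for Washc5 at 1.16 Mb. It was -0.09 for Klhl38 at 0.139 Mb. Genes next to the largest differences had smaller ones. Ndufb9, a subunit of respiratory complex I that is the measured neighbour of Mtss1, averaged -0.02, and Sqle, the squalene epoxidase beside Washc5, averaged 0.17. At the edge of the 1.2 Mb, Washc5 (0.36) and Nsmce2 (-0.01) lay just inside. Just outside, counting distance to either side of Fbxo32, were Trib1 at 1.47 Mb (-0.09) and Has2 at 1.51 Mb (0.25).

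**Figure D3:**
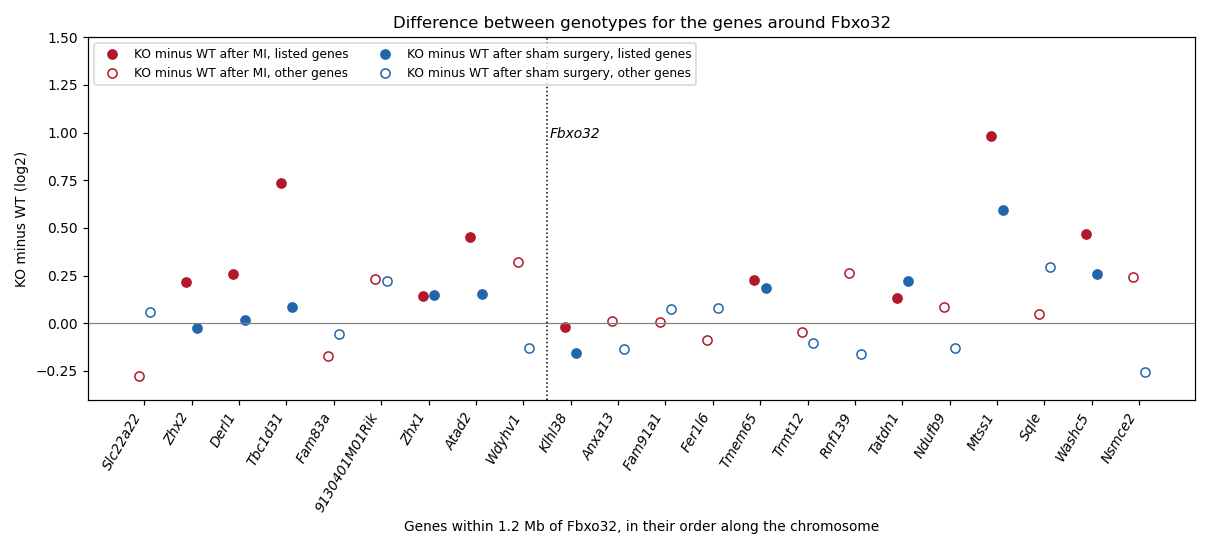
KO minus WT difference (vertical axis, log2) of the 22 measured genes within 1.2 Mb of Fbxo32, in their order along the chromosome (horizontal axis, not to scale), after MI in red and after sham surgery in blue. Filled points are the 10 listed genes and open points the other 12, and the dotted line marks Fbxo32. Mtss1 stands highest in both conditions, with Ndufb9 next to it at 0.09 after MI and -0.13 after sham surgery.

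Genes farther away could be tested, since the list did not draw on them. The KO effect averaged over conditions was fitted with limma across all genes, with condition as an additive term. It was called for 0.0552% of the genes tested in either direction (11 genes, adjusted p under 0.05), 0.0251% being higher in KO and 0.0301% lower. Of the 22 genes between 1.2 and 5 Mb from Fbxo32 limma called 0, and of the 182 genes between 5 and 20 Mb it also called 0 (smallest adjusted p = 0.233 in each band). At an unadjusted p under 0.05 there were 2 of 22 and 14 of 182, beside 1449 of 19938 genes. The median averaged difference was -0.0017 in the nearer band and -0.01 in the farther one, beside 0.00084 over all genes. Neither band gave a call under any of the other settings run. With 0.0552% of all genes called, 0 calls among 22 and 182 genes lie near that share. They cannot tell whether smaller differences reach these bands.

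**Figure D4:**
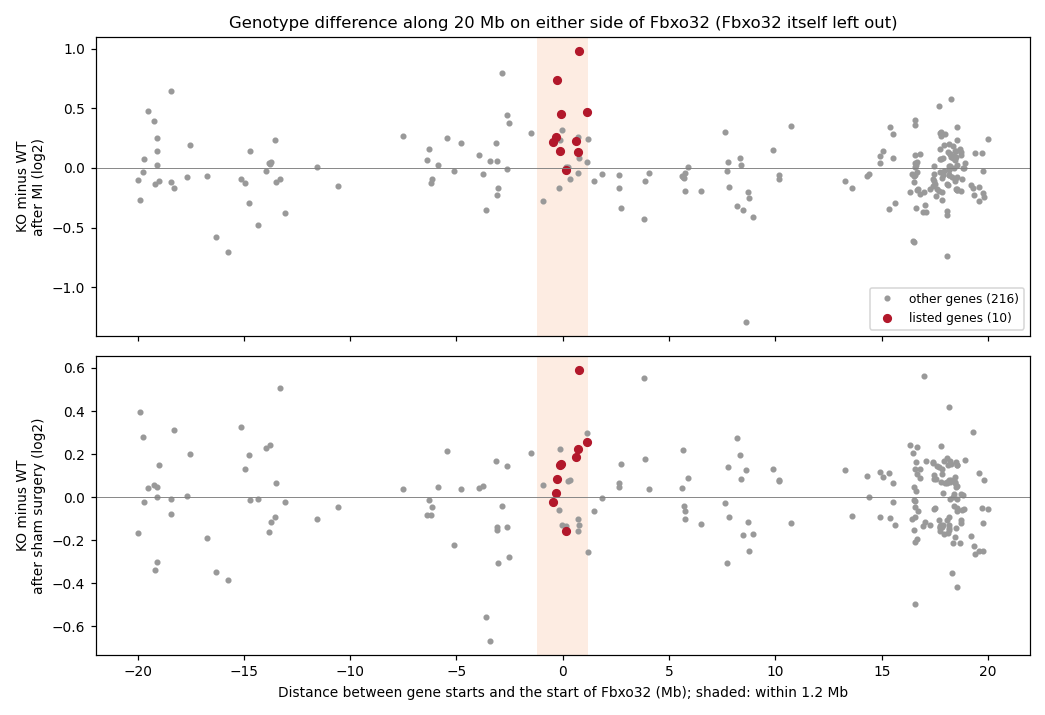
KO minus WT difference (vertical axes, log2) after MI (upper panel) and after sham surgery (lower panel) for the 226 genes within 20 Mb of Fbxo32, by distance from its start in Mb (horizontal axis). Red points are the 10 listed genes, grey points the other 216, and shading marks 1.2 Mb on each side. The listed genes, chosen with these differences known, lie mostly above 0. The other 12 genes of the shaded part (medians 0.03 after MI and -0.08 after sham surgery) scatter around 0, as do the bands from 1.2 to 20 Mb.

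The rule for choosing the genes did not name the response to infarction, which was tested with limma across all 19938 genes. The genes were listed with their KO minus WT differences known, and the same arrays enter these responses. Counts and medians for the 10 as a set are therefore not independent of that choice. The same 5 of the 10 genes (Klhl38, Tmem65, Zhx1, Mtss1 and Tbc1d31) fell after infarction in both genotypes. In KO hearts these 5 fell and 1 rose, where 10.3% of all genes fell and 10.5% rose. In WT hearts 7 fell and 0 rose (at an unadjusted p under 0.05 also 0), where 15.8% of all genes fell and 12.3% rose. The median MI minus sham difference over the 10 was -0.44 in KO and -0.62 in WT, beside 0.01 and 0.04 over all genes. In heart RNA, fewer cells of a type and less RNA per cell cannot be told apart. The summed level of the cardiomyocyte markers was lower in MI than in sham arrays in both genotypes (3 of 10 fell in KO and 5 of 10 in WT). That of the neutrophil markers was higher (8 of 8 rose in each genotype), and the part of such shifts in the falls was not tested. Without KO MI replicate 1, or without KO MI replicate 2, the number of the 10 genes called in KO was 3 rather than 6. Without KO sham replicate 1 and WT MI replicate 2 together, 6 were called in KO and 6 in WT.

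Klhl38 had the lowest MI minus sham value of the 10 in KO under all settings run. It was 2.26-fold lower in MI than in sham in KO hearts (log2 difference -1.18, SE 0.18, limma adjusted p = 0.00157) and 2.49-fold lower in WT hearts (-1.31, SE 0.18, limma adjusted p = 0.000514). In WT the value of Tbc1d31 was below that of Klhl38 with cyclic loess (-1.18 against -1.14), without WT MI replicate 1 (-1.38 against -1.05) and without WT sham replicate 1 (-1.23 against -1.19). Tmem65 fell 1.81-fold in KO (-0.86, SE 0.13, limma adjusted p = 0.00155) and 1.87-fold in WT (-0.90, SE 0.13, limma adjusted p = 0.000719). Zhx1 fell by 0.59 on the log2 scale in both genotypes, 1.51-fold (limma adjusted p = 0.00566 in KO and 0.00401 in WT). These 3 genes were called in both genotypes under all settings run.

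Mtss1 fell 1.40-fold in KO hearts (-0.49, SE 0.12, limma adjusted p = 0.0163) and 1.84-fold in WT hearts (-0.88, SE 0.12, limma adjusted p = 0.00047). The call in KO was lost without KO MI replicate 1 (limma adjusted p = 0.0744) or KO MI replicate 2 (0.1). Over all settings it ranged from 0.00978 to 0.1. Tbc1d31 fell 1.48-fold in KO (-0.57, SE 0.14, limma adjusted p = 0.0167) and 2.32-fold in WT (-1.22, SE 0.14, limma adjusted p = 0.000185). Its call in KO was lost without KO sham replicate 2, KO MI replicate 1 or KO MI replicate 2 (limma adjusted p = 0.0562, 0.06 and 0.116). Both genes fell further in WT arrays than in KO arrays, by 0.39 for Mtss1 and 0.65 for Tbc1d31. That gap is the same quantity as the change in the KO minus WT difference, so it was not tested.

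The remaining genes were called in 1 genotype or in none. Washc5 fell 1.31-fold in WT (-0.39, SE 0.12, limma adjusted p = 0.0356, range over settings 0.0141 to 0.218) and was at -0.17 in KO (limma adjusted p = 0.376). The WT call was lost without any one of the 4 WT arrays or either KO MI array, with the replicate block (limma adjusted p = 0.0548) and with cyclic loess (0.192). In all, that call was lost under 9 of the 18 other settings. Zhx2 fell 1.56-fold in WT (-0.64, SE 0.16, limma adjusted p = 0.0161), a call lost without WT sham replicate 1 (limma adjusted p = 0.12) or WT MI replicate 2 (0.106). In KO it was at -0.40 (limma adjusted p = 0.124, range over settings 0.0277 to 0.47). Without KO sham replicate 1 it was at -0.60 (limma adjusted p = 0.0369), and without KO sham replicate 2 at -0.20 (0.47).

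Derl1 went the other way. It rose 1.35-fold in KO hearts (0.43, SE 0.12, limma adjusted p = 0.0339) and was at 0.19 in WT hearts (SE 0.12, limma adjusted p = 0.291). The rise in KO was lost without either WT sham, KO sham or KO MI array, with array weights and with the compared groups alone, where its adjusted p ranged from 0.0519 to 0.233 in limma. In all, the KO rise of Derl1 was lost under 9 of the 18 other settings. With cyclic loess the WT rise passed too (limma adjusted p = 0.0488). Atad2 and Tatdn1 were not called in either genotype: Atad2 was at 0.09 in KO and -0.20 in WT, and Tatdn1 at -0.00072 in KO and 0.09 in WT. The difference between genotypes in these responses was not tested.

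**Figure D5:**
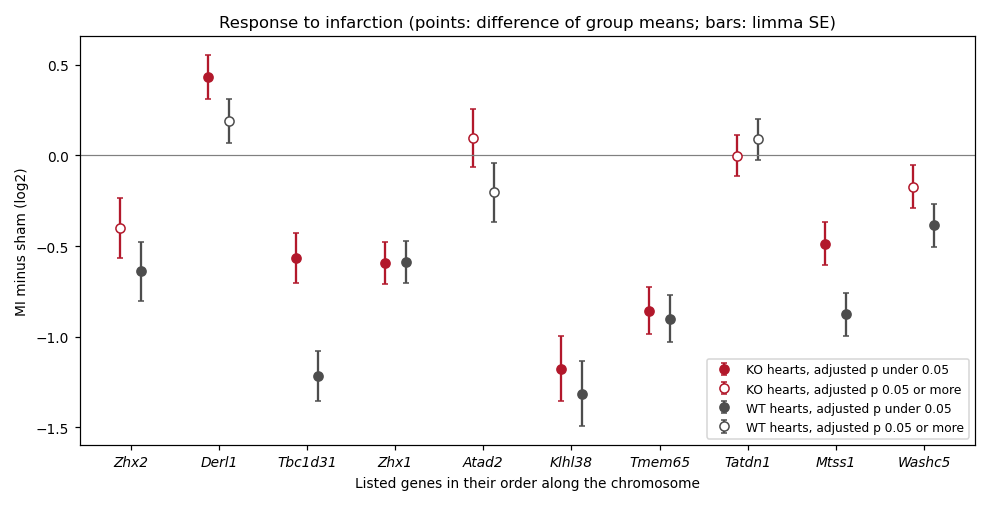
MI minus sham difference (vertical axis, log2) of the 10 genes, in their order along the chromosome, in KO hearts (red, left of each pair) and WT hearts (grey). Points are differences of group means with limma standard errors, and filled points have an adjusted p under 0.05. Klhl38, Tmem65 and Zhx1 fell in both genotypes, and Mtss1 and Tbc1d31 lay further below 0 in WT than in KO.

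Among the other 12 genes of the 1.2 Mb, 1 rose and 0 fell in KO, and 2 rose and 3 fell in WT. Sqle rose 2.17-fold in KO (limma adjusted p = 0.00118) and 2.58-fold in WT (limma adjusted p = 0.000233). The median response of the 12 was -0.03 in KO and -0.09 in WT, nearer to the median of all genes than that of the 10 listed genes. Of the 12, Slc22a22 averaged 2.49 in WT sham, Anxa13 4.18, Fam83a 4.28, Fer1l6 4.47, Trmt12 4.78 and Sqle 4.84. These were dim beside a median level of 5.80 over all genes tested, and the part of weak signal was not tested.

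Relatives and partners of the listed genes were set beside them through lists chosen with earlier results of these data known. Their counts stand beside the same shares of all genes, 10.5% rising and 10.3% falling in KO and 12.3% rising and 15.8% falling in WT, and medians of 0.01 in KO and 0.04 in WT. In the I-BAR and branched actin list (13 measured of 14), 3 rose and 3 fell in KO, and 4 rose and 3 fell in WT, with medians of 0.05 and 0.15. Mtss2, the closest relative of Mtss1, fell 1.54-fold in KO (limma adjusted p = 0.0383) and 2.12-fold in WT (limma adjusted p = 0.00176). The KO call of Mtss2 was lost under 9 of 18 other settings, among them cyclic loess (limma adjusted p = 0.0582), and its adjusted p reached 0.268. The actin regulators Cttn, Actr3 and Was rose instead, Cttn 2.29-fold in KO and 2.14-fold in WT and Actr3 1.90-fold in KO and 2.18-fold in WT. Was rose 1.57-fold in KO and 1.72-fold in WT. Averaged over conditions, Mtss2 was 0.36 higher in KO than in WT (limma adjusted p = 0.66), which did not pass. With cyclic loess 1 gene of this list fell in KO rather than 3.

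Of the 14 WASH complex and retromer genes, all measured, 0 rose and 1 fell in KO, and 0 rose and 3 fell in WT. Beside Washc5 the falling genes were Washc3 and Vps26a. Washc3, another WASH subunit, fell 1.84-fold in KO (limma adjusted p = 0.00388) and 2.36-fold in WT (0.000366). The retromer subunit Vps26a fell 1.54-fold in WT. The medians were 0.04 in KO and -0.08 in WT, the last turning to 0.04 with cyclic loess. Of the 13 genes of this list other than Washc5, 0 were called for the averaged KO effect. That effect is given for Washc5 only as a description, without a test.

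In the ER-associated degradation list, which holds Derl1, 10 of 19 measured genes rose and 1 fell in KO, and 7 rose and 1 fell in WT, with medians of 0.51 and 0.24. With cyclic loess 13 rose in KO and 11 in WT. Selenos, which anchors the extraction ATPase at the membrane, rose 2.26-fold in KO and 1.99-fold in WT, and the mannosidase-like Edem1 1.99-fold in KO and 2.09-fold in WT. The UBX-domain protein Ubxn4 rose 1.60-fold in KO and 1.88-fold in WT. The gene that fell in both genotypes was Erlec1, a lectin of the same pathway, whose KO call was lost under 6 settings (limma adjusted p = 0.028, up to 0.164). Among Derl1's own relatives, Derl3 rose 2.09-fold in KO and 1.83-fold in WT, while Derl2 was at 0.37 in KO and -0.14 in WT and was not called.

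In the kelch-like list, which holds Klhl38, 2 of 11 rose and 5 fell in each genotype. Klhl31 fell 1.67-fold in KO and 2.12-fold in WT and Kbtbd12 1.79-fold in KO and 2.56-fold in WT, in the direction of Klhl38. Klhl40 and Klhl41, both found in sarcomeres, rose: Klhl40 2.63-fold in KO and 4.15-fold in WT, and Klhl41 1.89-fold in KO and 2.46-fold in WT. The ZHX and NF-Y list had 1 fall among 6 genes in KO (Zhx1) and 2 in WT (Zhx1 and Zhx2). Zhx3 was at -0.39 in KO and -0.24 in WT and was not called.

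In the replication list, which holds Atad2, 4 of 13 rose and 0 fell in KO, and 3 rose and 1 fell in WT. Pcna, the sliding clamp, rose 1.77-fold in KO and 1.62-fold in WT, and E2f2 (1.41-fold and 1.68-fold) and Mcm6 (2.03-fold and 1.56-fold) rose in KO and WT. The WT call of Mcm6 (limma adjusted p = 0.0465) was lost under 8 of 18 settings, cyclic loess (0.0524) and median centring (0.0603) among them. The KO call of E2f2 (limma adjusted p = 0.0339) was lost under 7. Of 11 centriolar satellite genes 2 fell in KO (Tbc1d31 and Pcm1) and 3 in WT (these and Cep290). In the intercalated disc and mitochondrial calcium list (11 measured of 14), 2 rose and 3 fell in KO and 1 rose and 4 fell in WT. Ctnna3, an alpha-catenin of the disc, fell 1.89-fold in KO and 2.20-fold in WT, while the plakophilin Pkp2 rose 1.38-fold in KO and 1.45-fold in WT. Tjp1 fell 1.52-fold in KO and 1.44-fold in WT, the WT call being lost under 5 settings, cyclic loess among them (limma adjusted p = 0.0796). Desmin (Des) rose in KO (1.53-fold). Of 8 genes for deoxyribonucleases and their partners, 1 rose after infarction in KO hearts (Dffa, an inhibitor of the apoptotic nuclease). In WT hearts 2 fell (Tatdn3 and Aifm1). The Dffa call (limma adjusted p = 0.0488) was lost under 13 of 18 settings, median centring among them (0.0697). Calls of Pcm1 and Pkp2 in KO and of Cep290 and Vps26a in WT were each lost under 4 settings, and those of Aifm1 and Derl3 in WT under 3. That of Pkp2 in WT was lost under 2, and those of Ctnna3, Des, Mcm6 and Tjp1 in KO and Tatdn3 in WT under 1, each time with a single array left out. Mtss2, Erlec1, Derl2, Derl3, Klhl41 and Tjp1 were named after their values were seen.

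For the averaged KO effect, limma called 0 of the list genes outside the 1.2 Mb. Profiles were compared for the 8 listed genes whose arrays did not overlap between genotypes in both conditions, so not for Zhx2 and Klhl38, and the 3 closest genes to each lay on other chromosomes. Likeness was the root mean square difference between profiles over the 8 arrays, each centred on its mean, so a smaller value is closer. For Mtss1 the 3 closest were Rapsn (0.17), Rhd (0.174) and Brca2 (0.177), set against a pooled replicate SD of 0.05 for Mtss1. For Washc5 they were P2rx3 (0.0485), Rufy2 (0.0702) and S1pr5 (0.0769), and for Tbc1d31 Tmem53 (0.0771), Mlh3 (0.0796) and Decr2 (0.0887).

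Zhx1 was nearest to Aak1 (0.0337), Trim33 (0.0374) and Sos2 (0.0455), and Tmem65 to Trp53inp2 (0.0544), Eml6 (0.0631) and Pex11a (0.07). Tatdn1 was nearest to Sorbs2 (0.033), Lrrfip2 (0.0344) and Ensa (0.0435), and Derl1 to Clta (0.0314), Cdc16 (0.0435) and Ticam2 (0.0485). Atad2 was nearest to Rrm1 (0.0513), Bicc1 (0.0604) and Tusc3 (0.0637). These distances are descriptions over the same 8 arrays, with no test.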

How the data were processed

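The authors deposited log2 expression levels. Expression Console and RMA are the tools listed, per the submitters' processing notes, with versions not given in the sources used here. RMA as commonly run equalises the distributions of arrays. Genotype, condition and replicate number came from the labels. Of 35556 probes, 21789 had 1 gene in the platform annotation, and the probe with the highest mean was used per gene, without a filter on low values. Distances are between gene starts in the RefSeq table (GRCm38.p6), since the files name no build. limma 3.58.1 (R 4.3.3) fitted 4 group means to all 8 arrays (4 residual and 5.57 prior degrees of freedom), or condition plus genotype for the averaged effect, two-sided, with Benjamini-Hochberg adjustment over 19938 genes. An exact permutation test of 2 arrays against 2 cannot go below p = 0.333. Precision is limited by having 2 arrays per group. The members and lists were chosen with earlier results of these data known.

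Named genes were the members, Fbxo32, genes of the window whose arrays did not overlap in both conditions, called genes of the farther bands, the 3 closest profiles, and up to 3 further genes per list with the smallest p. Ndufb9, Sqle, Rnf139, Nsmce2, Wdyhv1, Trib1, Has2, 9130401M01Rik, Mtss2, Erlec1, Derl2, Derl3, Klhl41 and Tjp1 were added after values were seen. So were Slc22a22, Anxa13, Fam83a, Fer1l6 and Trmt12. Alternatives were: each array left out; the replicate number as a block; median centring or cyclic loess of the arrays; a fit of the compared groups alone (for the averaged effect, 4 group means); probes averaged per gene; genes in the lowest 33.3% dropped; weighted arrays; and a variance prior that follows intensity. The joint removal of 2 arrays and a crossed block were chosen after seeing the data. The code was tested on simulated data. Figures used matplotlib 3.10.9 in Python 3.11.15.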

Additional observations from a re-analysis of the deposited data

Results flagged for a closer look

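Within 1.2 Mb of Fbxo32, 3 genes outside the list moved oppositely between genotypes in the 2 conditions, with every KO array on one side of the WT arrays after MI and on the other after sham surgery. Of all genes 3.88% met the same rule in the same direction. The KO minus WT difference of Wdyhv1 was 0.32 after MI and -0.13 after sham surgery. That of Rnf139 was 0.26 after MI and -0.16 after sham surgery, and that of Nsmce2 was 0.24 after MI and -0.25 after sham surgery. The change between conditions was not tested.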

How the results depend on the processing

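The count of the 10 genes above 0 in both conditions, 8 with all arrays, was 8 or 9 under the other settings. Leaving out single arrays gave 3 to 6 called members in KO and 5 to 7 in WT. It gave 2246 to 4099 called genes in KO, against 4142 with all arrays (2305 without KO MI replicate 1, 2246 without KO MI replicate 2). In WT it gave 3457 to 6483 called genes, against 5609 with all arrays (3457 without WT sham replicate 1, 3462 without WT sham replicate 2), and for the averaged KO effect 2 to 9 genes, against 11 with all arrays. That count was 20 with 4 group means, 3 with the replicate block, 3 with the crossed block and 4 without KO sham replicate 1 and WT MI replicate 2. The median gap between KO and WT responses was 0.23 with all arrays, 0.098 with cyclic loess and 0.11 without those 2 arrays. Responses near 0 changed sign without being called. Tatdn1 in KO (-0.00072) was at 0.0278 with cyclic loess and -0.0096 to 0.0082 with single arrays left out (0.0081 without KO sham replicate 2). With single arrays left out, Atad2 was at -0.0133 to 0.20 in KO and at -0.41 to 0.0017 in WT, and at 0.0017 in WT with both arrays left out. The cause was not tested. Replicate numbers share only a number: deviations of same-numbered arrays correlated across genes between -0.19 and 0.16. The replicate block left 6 members called in KO and 6 in WT. Signal over background was not measured here, so what it limits was not tested.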
